A study of Mus musculus with 3 samples.

Results

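Footprints that lay outside every called peak of their own library were examined in natural killer cells. Of 564463 footprints in 3 DNase-seq libraries, 85468 shared no base with a peak of the longer of the 2 deposited peak lists of the same library. They numbered 13117, 38717 and 33634 in replicates 1, 2 and 3, which was 12.9%, 16.2% and 15.1% of each library's footprints, or 14.7% ± 1.69 (SD, n = 3). The other 88873, 200766 and 189356 footprints shared at least 1 base with a peak and are called inside footprints below. The members were chosen by measured values, the positions of peaks and footprints called from the same reads. Their position relative to peaks of the same library, and the strength of those reads, are therefore given as description only.

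The cells were primary natural killer cells of adult male B6CASTF1/J mice, 2 months old, the first-generation cross of C57BL/6J and CAST/EiJ. All 3 libraries belong to 1 group, with no treatment named, so there is no comparison between conditions. Their biosample labels differ but the donor label is the same, separate animals are not stated, and the spread given here may therefore be technical. The labels name no sort or gate for the cells.

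DNase I cuts DNA that nucleosomes leave exposed, and dense cutting is called as a peak. Within such DNA a bound protein shields its contact bases, and the short stretch with fewer cuts than its surroundings is called a footprint. Footprints are commonly read within peaks, because a local loss of cuts can be seen only where cuts are frequent. Natural killer cells are lymphocytes whose regulatory DNA is known for sites of the RUNX, ETS and T-box factor families, while promoters of widely expressed genes are known for sites of SP and KLF factors (GC box), NRF1, YY1, CREB (CRE) and NF-Y (CCAAT box).

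The sequences of 12 of the recurrent sites that no peak of any library overlapped, described below, show examples with a named motif, which most such sites lack. They were taken from the 2 sites per motif nearest to a protein-coding start site, and all but the Rara site, 2271 bp downstream, had their middle within 500 bp of that start. Capitals mark the site, the union of the overlapping footprints of the 3 libraries, and the 20 bases on each side are in lower case. All are read 5′ to 3′ from the mm10 (GRCm38) reference. The printed motif can run on past the capitals or lie on the other strand.
CTCF at Usp35, chr7:97332136-97332203, + strand: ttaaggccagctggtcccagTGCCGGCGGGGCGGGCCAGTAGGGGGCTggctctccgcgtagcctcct
CTCF at Rps6ka5, chr12:100724737-100724795, + strand: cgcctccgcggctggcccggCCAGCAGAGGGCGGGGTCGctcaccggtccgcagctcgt
CRE at Hist1h4a, chr13:23761239-23761312, + strand: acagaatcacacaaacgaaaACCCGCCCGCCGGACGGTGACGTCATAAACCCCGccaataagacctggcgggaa
YY1 at Fnbp4, chr2:90745195-90745247, + strand: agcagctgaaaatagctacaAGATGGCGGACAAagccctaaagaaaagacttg
RUNX at Prpsap2, chr11:61762248-61762319, + strand: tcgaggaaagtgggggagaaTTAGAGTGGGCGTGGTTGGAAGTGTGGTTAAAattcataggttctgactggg
RUNX at Shprh, chr10:11149094-11149173, + strand: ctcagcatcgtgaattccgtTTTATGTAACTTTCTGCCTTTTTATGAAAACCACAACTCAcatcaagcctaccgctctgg
ETS at Wwox, chr8:114439395-114439473, + strand: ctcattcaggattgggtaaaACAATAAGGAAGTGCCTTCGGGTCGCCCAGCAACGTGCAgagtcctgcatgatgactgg
ETS at Rara, chr11:98941947-98942017, + strand: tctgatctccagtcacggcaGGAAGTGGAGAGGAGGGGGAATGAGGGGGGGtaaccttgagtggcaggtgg
T-box at Mecr, chr4:131843316-131843378, + strand: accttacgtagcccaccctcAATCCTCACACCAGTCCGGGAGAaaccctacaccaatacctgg
T-box at Nrd1, chr4:109000859-109000917, + strand: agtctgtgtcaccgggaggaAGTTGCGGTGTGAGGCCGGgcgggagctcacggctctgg
CRE at Gpbp1, chr13:111490163-111490280, + strand: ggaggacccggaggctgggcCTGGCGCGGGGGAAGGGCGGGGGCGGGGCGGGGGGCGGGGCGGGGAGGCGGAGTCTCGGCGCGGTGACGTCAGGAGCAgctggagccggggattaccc
IRF at Rpl5, chr5:107900347-107900429, + strand: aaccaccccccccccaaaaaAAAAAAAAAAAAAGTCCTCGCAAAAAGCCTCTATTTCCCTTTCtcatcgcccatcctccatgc

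The Usp35 site lay 37 bp from the nearest peak in each of the 3 libraries and held a CTCF motif, and the Mecr site lay 2 bp away in each. The Rps6ka5 site lay 225, 265 and 156 bp away, inside an intron. The Gpbp1 site spanned 78 bp, with a chain of GC boxes (GGGCGGGG) and, separate from it farther along, a CRE (TGACGTCA). The Rpl5 site began in a run of A.

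No footprint outside peaks was remote from one. The gap to the nearest peak, the number of bases between the facing edges, had medians of 48, 39 and 36 bp in replicates 1, 2 and 3. At most 50 bp separated 51.8%, 58.2% and 61.2% of members from a peak, and at most 150 bp separated 91.2%, 89.1% and 90.4%. The longest gaps were 701, 705 and 604 bp, and 1.60%, 2.16% and 1.76% of members lay more than 250 bp away. Members thus formed a fringe around peaks in all 3 libraries, with the median gap shortest in replicate 3 and longest in replicate 1. The shares beyond 250 bp did not follow that order and were highest in replicate 2. A second peak often lay on the far side: 28.3%, 37.3% and 38.6% of members sat between 2 peaks that were each within 1000 bp.

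**Figure D1:**
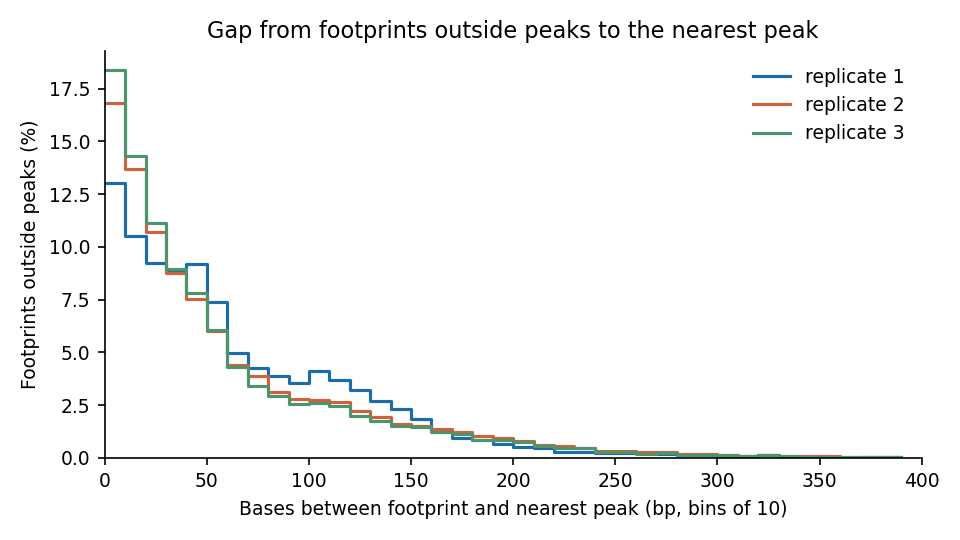
Share of footprints outside peaks (%, y axis) by the number of bases to the nearest peak (bp, x axis, bins of 10), 1 line per replicate. The share is highest beside the peak in each library, and the medians are 48, 39 and 36 bp.

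Most of the fringe lay in the same accessible stretches as the nearest peaks. The deposited cut rate intervals give a q-value (false discovery rate, FDR) of local cutting. Of members 99.3%, 99.7% and 99.7% overlapped an interval at an FDR of 0.05 or less, against 99.7%, 99.8% and 99.7% of inside footprints. Both sets of footprints derive from these intervals, so a nearly complete overlap was largely fixed beforehand. In 96.2%, 98.1% and 98.0% of members the unbroken stretch under that FDR reached the nearest peak. These stretches had median widths of 926, 1106 and 1080 bp, while the median peak width was 220, 200 and 200 bp. Peaks covered 54.4%, 52.9% and 52.8% of all bases under the FDR. The rest held 1.79, 2.54 and 2.31 footprints per kb, against 10.1, 11.8 and 11.6 per kb in the part under peaks. Stretches with no peak at all numbered 27957, 46715 and 44122 and held 371, 562 and 520 of the members. Their median lengths were 5, 4 and 5 bp, less than the shortest footprint of 7 bp, and the longest measured 299, 299 and 254 bp. Together they covered only 300394, 426047 and 428161 bp. A further 90, 116 and 107 members lay in no stretch.

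Median q-values were lower at members than at inside footprints in all 3 libraries. The median of the lowest q-value over a member was 1.18e-18, 1.11e-40 and 7.3e-44, against 5.49e-15, 1.24e-16 and 1.17e-17 over an inside footprint. At the stricter FDR of 0.001, 87.1%, 93.4% and 93.5% of members and 88.9%, 88.4% and 89.3% of inside footprints had an interval, so the sign of the difference was not the same in replicate 1 as in replicates 2 and 3.

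Members gathered beside the strongest peaks. The signal of the nearest peak, ranked among all peaks of the library, had median percentiles of 86.9, 92.8 and 93.1 for members and 76.5, 71.7 and 72.0 for the peaks that hold inside footprints. The strongest 10% of peaks were nearest to 42.5%, 60.3% and 60.9% of members. Each of these strongest peaks had on average 1.41, 2.80 and 2.53 members beside it, while a peak of the weakest 10% had 0.0608, 0.0641 and 0.0587. Inside footprints also rose with signal, but over the whole range, from 0.203, 0.386 and 0.344 per peak to 5.68, 5.12 and 5.08. Only 17.6%, 20.6% and 19.2% of peaks were nearest to any member, and the most members at 1 peak were 15, 19 and 15.

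**Figure D2:**
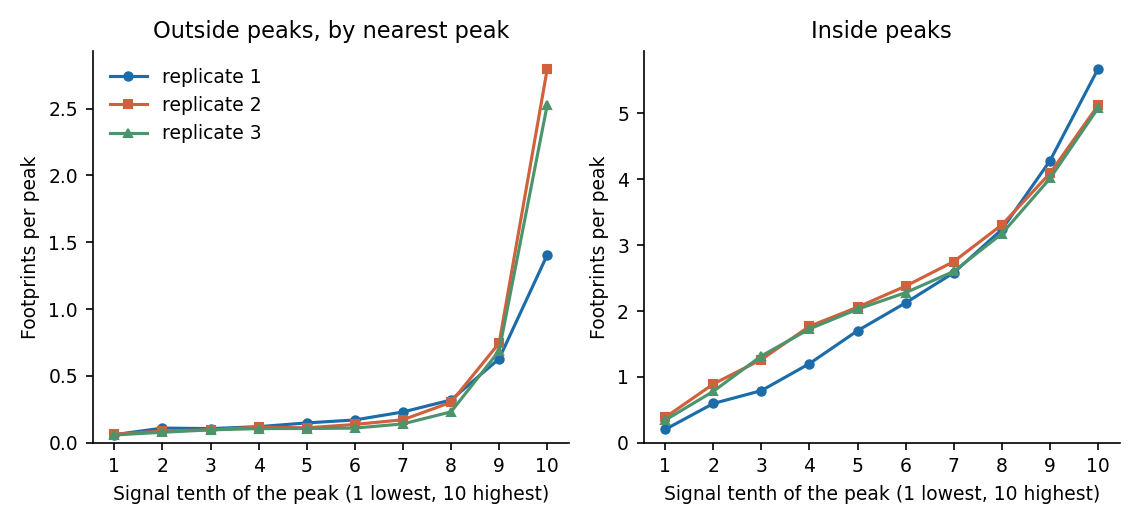
Footprints per peak (y axis) by class of peak signal (x axis, 10 classes from the lowest to the highest 10%), outside peaks by nearest peak on the left and inside on the right, 1 line per replicate. The left panel rises mainly in the top class, to 1.41, 2.80 and 2.53, and the right panel rises throughout.

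Footprints just across the peak edge were close in width to those just within it, beside peaks of higher signal. Members at most 10 bp from a peak numbered 1849, 7103 and 6734, with mean widths of 10.5, 12.3 and 12.2 bp. Inside footprints at most 10 bp from an edge numbered 4026, 13128 and 11670, with mean widths of 10.7, 12.4 and 12.4 bp. The nearest peaks had median signal percentiles of 86.6, 89.99 and 90.03 for the former and 81.1, 81.7 and 82.5 for the latter. Another 2123, 9166 and 8356 footprints straddled an edge and counted as inside, with mean widths of 14.2, 17.4 and 17.2 bp.

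Members were shorter than inside footprints. Their median width was 8, 9 and 9 bp against 10, 10 and 10 bp, and their mean width was 11.3 bp ± 0.603 against 13.5 bp ± 0.581 (SD, n = 3). The rule itself favours short members, because a long footprint near an edge needs only 1 shared base to count as inside. The median difference was -1.33 bp on average, and -0.67 bp where inside required 50% of the footprint to be covered. The test below does not take this into account. Footprints of 7 bp, the shortest width in the lists, made up 36.5%, 31.2% and 31.2% of members and 27.3%, 24.4% and 24.8% of inside footprints. At least 25 bp was reached by 3.499%, 5.58% and 5.64% of members against 9.18%, 13.0% and 12.4%. The longest members measured 54, 77 and 78 bp. All 3 libraries went the same way, which gives p = 0.25 by an exact two-sided sign-flip test, the smallest that 3 replicates allow; the same limit holds for every contrast of members with inside footprints that follows. Against the inside footprints of the same neighbouring peaks, a comparison added after the values were seen, the difference was larger: those had a mean width of 15.97 bp ± 1.18, and 17.2% ± 3.56 of them were 25 bp or longer.

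Most members lay at promoters. Within 500 bp of a protein-coding start site lay 67.9%, 63.4% and 63.1% of members against 53.2%, 31.1% and 31.9% of inside footprints, a difference of 26.02 percentage points ± 9.87, which was 1.77 points with the stricter peak list. Of all members, 3.17% ± 0.0314 lay farther away in exons, 14.2% ± 1.16 in introns and 17.8% ± 1.53 between genes, against 4.83%, 27.5% and 28.96% of all inside footprints. At like peaks the difference did not hold. The inside footprints of the neighbouring peaks lay within 500 bp of a start site in 76.7%, 61.8% and 63.3% of cases, and the difference became -2.46 points on average, with a different sign in replicate 2 than in replicates 1 and 3.

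Around the start site itself the members were shifted to the transcribed side. In the 100 bp upstream of the start lay 14.6%, 8.65% and 9.26% of members and 19.9%, 11.5% and 11.97% of inside footprints. In the 100 bp downstream the shares were 13.2%, 16.5% and 17.0% of members against 12.6%, 7.17% and 7.27%. Replicates 2 and 3 therefore had a dip in members just upstream of the start and a maximum just downstream, whereas in replicate 1 the maximum was upstream. Of members within 500 bp, 45.6%, 51.2% and 49.2% lay downstream, against 36.1%, 36.4% and 35.7% of inside footprints and 33.4%, 33.1% and 32.4% of those in the neighbouring peaks. This shift had the same sign in all 3 libraries against either set.

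**Figure D3:**
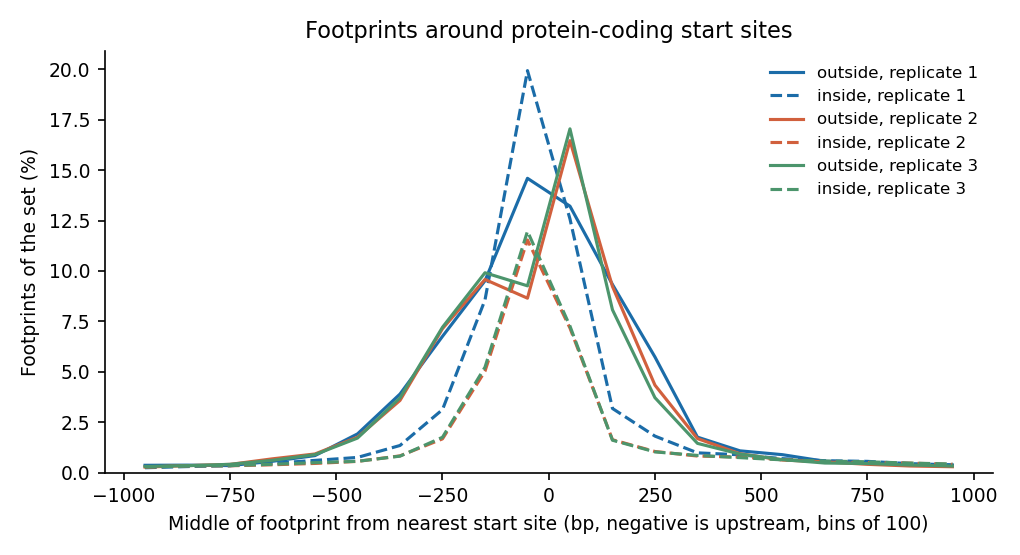
Share of each set of footprints (%, y axis) by distance of the footprint's middle from the nearest protein-coding start site (bp, x axis, negative is upstream, bins of 100), solid lines for outside and dashed lines for inside peaks, 1 colour per replicate. Inside footprints are highest in the 100 bp upstream, while outside footprints of replicates 2 and 3 dip there and reach 16.5% and 17.0% in the 100 bp downstream.

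The base composition followed the position. The GC content of about 100 bp around the middle was 61.1%, 59.3% and 59.2% for members and 60.005%, 55.998% and 56.1% for inside footprints, a difference of 2.47 points ± 1.22. This sign did not hold at like positions: the difference was -0.87 points among footprints within 500 bp of a start site, -1.92 points against inside footprints of the neighbouring peaks and -1.08 points with the stricter peak list. CpG dinucleotides numbered 7.01, 6.32 and 6.23 in that window for members and 6.22, 4.29 and 4.32 for inside footprints. With growing gap to the peak GC content went from 57.7% ± 1.29 at up to 25 bp to 62.7% ± 0.645 at over 100 and up to 250 bp, and the promoter share from 59.2% ± 3.67 to 73.3% ± 3.06.

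Simple sequence was more common at the members. A run of at least 12 bp of a 1- or 2-base unit lay within the 51 bp around the middle in 1.97%, 2.30% and 2.21% of members against 0.779%, 1.27% and 1.23% of inside footprints. Of 2080 distinct 6-mers in those windows, strands combined, 2 were more than 2-fold more frequent outside in every library (0.0962%) and 1 was more than 2-fold less frequent (0.0481%). The 2 higher ones were AAAAAA and CCCCCC, with log2 ratios of 1.51 ± 0.17 and 1.06 ± 0.02, and the lower one was CACTAG, at -1.26 ± 0.04. These ratios count every overlapping occurrence, so a longer run of A or C adds several counts. The contrasts by footprint were smaller for the 2 higher ones. By footprint, AAAAAA stood in the window of 2.44%, 3.67% and 3.57% of members, against 1.43%, 2.15% and 2.06% of inside footprints and 1.41%, 1.78% and 1.80% of those in the neighbouring peaks. CCCCCC stood in 4.72%, 5.11% and 5.22% of members, against 3.37%, 3.26% and 3.26% of inside footprints and 4.09%, 4.22% and 4.28% of those in the neighbouring peaks. CACTAG, which matches bases within the CTCF motif searched here, stood in 1.45%, 1.41% and 1.47% of members against 3.31%, 3.49% and 3.51% of inside footprints. Without replicate 1 the number of 6-mers past 2-fold was 13. The central 36 bp occurred more than once in the reference for 2.56%, 2.61% and 2.49% of members and 1.86%, 2.30% and 2.22% of inside footprints, so few of either set lay in sequence with a second copy.

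The motif of CTCF, a zinc finger protein that anchors chromatin loops, separated the sets the most among the motifs named here when all inside footprints were compared. A motif counted where at least 50% of its letters, on either strand, fell in the footprint. A wider footprint therefore has more positions for a match, and members were shorter. CTCF matches were found in 51, 58 and 59 members (0.389%, 0.150% and 0.175%) and in 2.35%, 2.47% and 2.47% of inside footprints. The mean log2 ratio of outside to inside was -3.48 ± 0.78, an 11.2-fold lower share, and it was -2.14 ± 1.14 against the inside footprints of the neighbouring peaks. The ratio was -2.28 among footprints of 8 to 12 bp and -2.12 with the stricter peak list. Within 500 bp of start sites it was -1.47 ± 0.61, and there the CCAAT box ratio was lower, at -1.97 ± 0.44. Members still carried the motif more often than DNA beside them. In windows of the same width 60 bp to each side, clear of footprints, it was found in 6 of 19861, 2 of 52570 and 4 of 45524.

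Motifs of the lymphoid factor families were likewise less frequent at the members. RUNX (TGTGGTT) was found in 0.168%, 0.253% and 0.253% of members against 0.378%, 0.723% and 0.911% of inside footprints, a log2 ratio of -1.51 ± 0.34. The general ETS motif (AGGAAGT) had 0.297%, 0.364% and 0.303% against 0.551%, 0.932% and 0.947%, or -1.30 ± 0.38. The T-box motif (GGTGTGA), the kind bound by T-bet and EOMES, had 15, 37 and 33 matching members, 0.103% ± 0.0102 against 0.252% ± 0.063, or -1.27 ± 0.51. Against the neighbouring peaks these ratios were smaller, -0.73 ± 0.55, -0.86 ± 0.44 and -0.66 ± 0.30, and with the stricter peak list they were -0.60, 0.02 and -0.38, with the ETS ratio on the other side of 0. Among footprints of 8 to 12 bp the RUNX, ETS and T-box ratios were -1.38, -1.20 and -0.91. Relative to windows of the same width 60 bp away, the log2 ratio at members was 0.06 ± 0.54 for RUNX with mixed sign, -0.27 ± 0.13 for ETS and -0.78 ± 0.41 for T-box, the last 2 below 0 in all 3 libraries. RUNX stood in 0.213% ± 0.0302 of those windows, ETS in 0.387% ± 0.0214 and T-box in 0.178% ± 0.0317. For inside footprints, RUNX stood in 0.671% ± 0.27 against 0.384% ± 0.0573 of their flanking windows, ETS in 0.810% ± 0.224 against 0.617% ± 0.0669, and T-box in 0.252% ± 0.063 against 0.237% ± 0.0358, with mixed sign for T-box.

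Motifs known from promoters went both ways. The CRE (TGACGTCA), bound by CREB and ATF factors, was lower at members at -1.05 ± 0.28, as was the CCAAT box (AGCCAAT), bound by NF-Y, at -1.14 ± 0.26. Against inside footprints of the neighbouring peaks both were lower still, at -1.86 ± 0.50 and -1.998 ± 0.38, while over 500 bp from start sites the ratios were -0.24 ± 0.35 and -0.20 ± 0.52, smaller than their spread. For CRE the ratio was also smaller at widths of 8 to 12 bp, at -0.22, and at 40 to 60% GC, at -0.41. YY1 (AAGATGGCG) was found in 0.221%, 0.189% and 0.178% of members against 0.194%, 0.156% and 0.147%, a log2 ratio of 0.25 ± 0.05, and E2F (TTCCCGCC) had a ratio of 0.14 ± 0.15. The positive sign held neither near start sites nor away from them. Within 500 bp of start sites they were -0.11 for YY1 and -0.38 for E2F, farther away -0.64 and -0.78, and against the neighbouring peaks -0.51 and -0.88. The E-boxes CAGGTG and CAGCTG had ratios of -1.11 ± 0.36 and -0.46 ± 0.14, and of -0.44 ± 0.49 and -0.06 ± 0.13 against the neighbouring peaks. At widths of 8 to 12 bp the E-box ratios were -0.52 and -0.51. The ratio was -0.41 ± 0.30 for NF-kB, -0.32 ± 0.17 for TCF/LEF (TCAAAG) and -0.23 ± 0.10 for IRF (GAAANNGAA). At widths of 8 to 12 bp these 3 ratios were -0.32, -0.26 and -0.009, so the IRF difference was nearly absent there. Of 34 motifs searched, 19 had at least 20 matching members in every library, and 15 of these were lower outside in all 3, 2 higher and 2 mixed. For these counts the sets were not matched for width.

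The GC box (GGGCGGGG), singled out after its values were seen, was the most frequent of these motifs at the members and did not separate them from inside footprints. It stood in 4.43%, 3.07% and 3.24% of members and 4.45%, 3.09% and 3.16% of inside footprints, a log2 ratio of 0.01 ± 0.03 with mixed sign. The pooled ratio joined 2 opposite ones, -0.74 ± 0.34 within 500 bp of start sites and 0.61 ± 0.12 farther away, and against the neighbouring peaks it was -0.91 ± 0.23. Of the flanking windows 0.502% ± 0.203 held a GC box, so at members it was 2.88 ± 0.26 log2 units above the DNA beside them. NRF1 (GCGCATGCG), also chosen after the values were seen, stood in 72, 77 and 66 members and in 3 flanking windows of each library. The ETS motif with a CpG (CCGGAAGT), chosen likewise, stood 2.50 ± 0.48 log2 units above the flanking windows. NRF1 stood 5.07 ± 0.15 above them, and at inside footprints the 2 motifs stood 3.03 ± 0.43 (ETS) and 6.51 ± 0.25 (NRF1) above their flanks. Both were lower at members than at inside footprints in all 3 libraries, at -0.58 ± 0.35 for NRF1 and -0.72 ± 0.13 for this ETS motif. Against the neighbouring peaks the ratios were -1.65 ± 0.56 and -1.59 ± 0.49. Over the 19 motifs, 12 were more frequent at members than in their flanking windows in all 3 libraries, and 15 were so for inside footprints. The GC box share by gap went from 2.65% ± 0.577 at up to 25 bp to 5.38% ± 0.481 at over 100 and up to 250 bp.

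**Figure D4:**
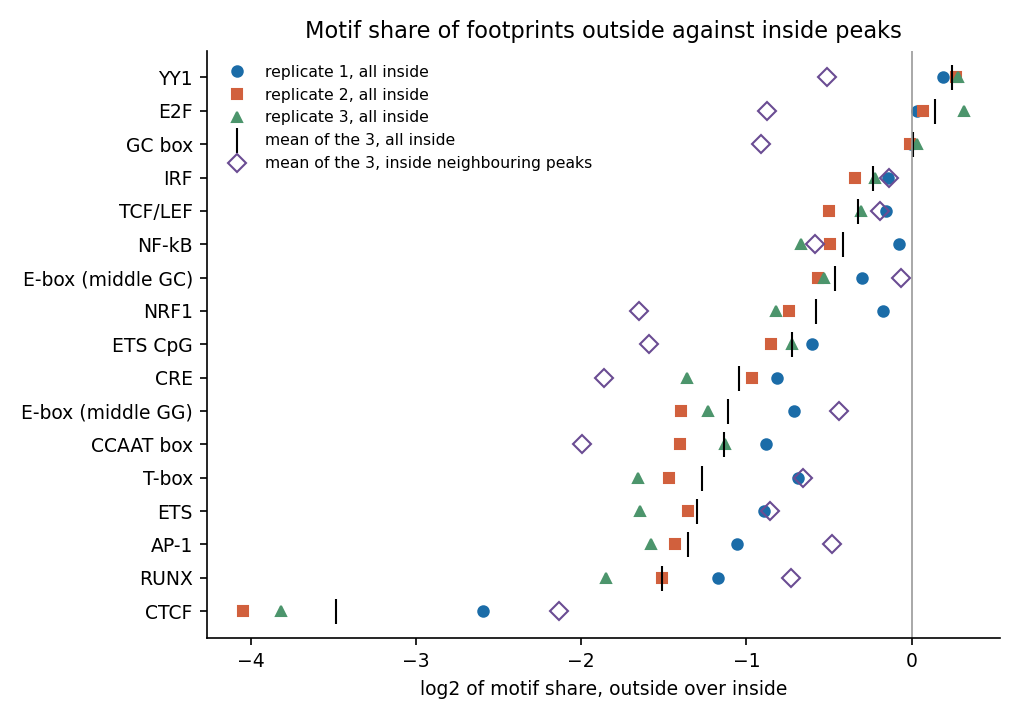
log2 ratio of the share of footprints with a motif, outside over inside peaks (x axis), for 17 motifs (y axis); filled points are the replicates, bars their mean, and open diamonds the mean against inside footprints of neighbouring peaks only. CTCF lies farthest left at a mean of -3.48, the GC box at 0.01, and YY1 and E2F change sign against the neighbouring peaks.

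The other libraries gave a view of the members that their selection did not use. Of members 49.6%, 43.5% and 46.8% lay in a peak of at least 1 of the other 2 libraries, against 91.3%, 88.7% and 91.1% of inside footprints. Between replicates 2 and 3, which have the longer peak lists, the share was lowest. Members of replicate 2 lay in a peak of replicate 3 in 19.6% of cases and those of replicate 3 in a peak of replicate 2 in 22.0%, against 86.4% and 88.8% of inside footprints. Replicate 1 has fewer peaks, yet its peaks held 33.4% of the members of replicate 2 and 36.05% of those of replicate 3. Without replicate 1 the share in a peak of another library was accordingly 20.8%, against 46.6% ± 3.08 with all 3. The share in a peak of another library went from 54.6% ± 3.61 at gaps of up to 25 bp to 29.7% ± 9.85 beyond 250 bp.

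Footprints of other libraries recurred at the members' positions less often than at inside footprints in all 3 libraries. At least 1 base was shared with a footprint of another library by 67.8%, 53.3% and 61.7% of members and 76.3%, 58.5% and 62.4% of inside footprints, a difference of -4.79 points ± 3.93. With the stricter peak list the difference was -22.8 points. The inside footprints of the neighbouring peaks recurred in 83.6%, 78.2% and 80.5%, so at like peaks the difference was wider. Inside footprints, and most of all those of the neighbouring peaks, were wider than members, and 1 shared base sufficed. These differences were not matched for width. Between replicates 2 and 3 the position outside peaks recurred as well: 38.3% of the members of replicate 2 overlapped an outside footprint of replicate 3 and 11.3% an inside one. In the other direction the shares were 44.3% and 14.1%. For members of replicate 1 the 2 kinds were close to equal, with 29.4% on outside and 30.5% on inside footprints of replicate 2.

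**Figure D5:**
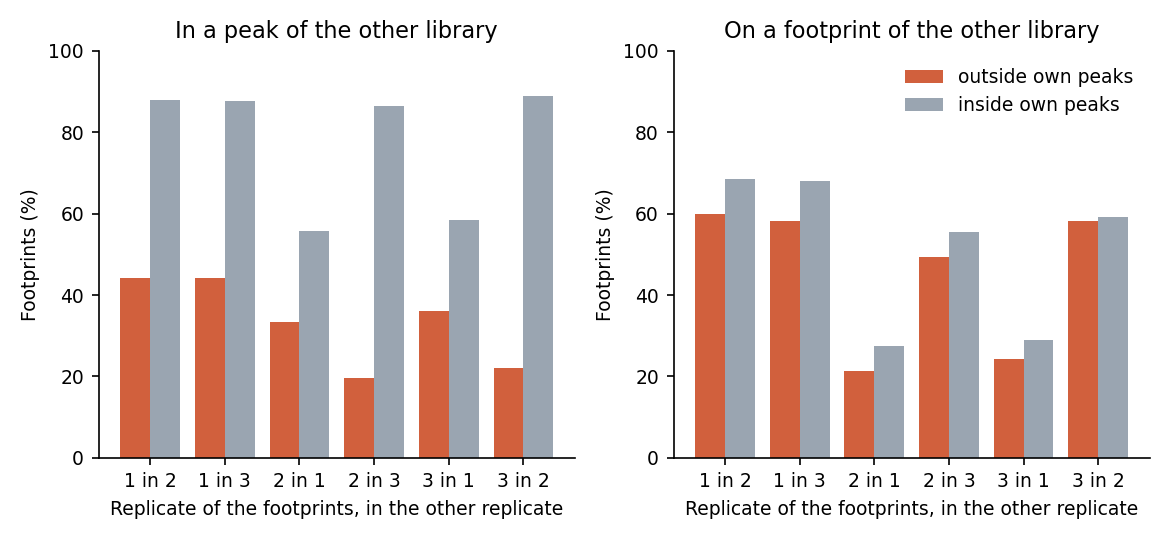
Share of footprints (%, y axis) of one replicate that overlap a peak (left) or a footprint (right) of another replicate (x axis, own replicate then other), orange for outside and grey for inside their own peaks. Orange bars on the left are lowest between replicates 2 and 3, at 19.6% and 22.0%, and on the right they lie close to the grey ones.

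Joining overlapping footprints of the 3 libraries gave 30797 sites that no peak of any library overlapped, of which 21066 came from 1 library, 7253 from 2 and 2478 from all 3. The last, 8.05%, are the recurrent sites. Of sites in a peak 16.3% were seen in all 3 libraries. These 2 shares are not like for like. A union of more footprints tends to be wider, and 1 base shared with a peak of any library placed a site in the peak set. Without replicate 1 the sites seen in both of the others, outside the peaks of both, numbered 13657. Recurrent sites had a median width of 22 bp, and 83.5% lay within 500 bp of a start site, while 168 lay over 10 kb from one. Their median gap to a peak was 49, 54 and 54 bp. A GC box stood in 248 of them (10.01%), the E-boxes CAGGTG and CAGCTG in 30 and 28, TCF/LEF in 24 and EBF (CCCNNGGGA) in 22. The ETS motif with a CpG and the nuclear receptor motif (AGGTCA) stood in 20 each. Among the others were NRF1 in 19, IRF in 16, YY1 in 16, CTCF in 12, RUNX in 5, ETS in 5 and T-box in 2. These sites are unions of footprints and wider than members, so the shares cannot be set beside those of members. No share for sites in peaks is given.

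The genes with the most members, among those with a recurrent site, had promoters of very strong signal. Among protein-coding genes with a recurrent site within 500 bp of a start site, Ing1 had 8, 17 and 20 members there, and Ing2 9, 13 and 12; both encode readers of histone marks. Akt1s1 and Tbc1d17, which share a promoter region, had 6, 17 and 13. The RNA-binding protein genes Hnrnph1 and Hnrnpl had 9, 11 and 11 and 5, 13 and 13, and the RNA helicase gene Ddx5 had 4, 15 and 11. Uqcrq, a subunit of respiratory complex III, had 6, 15 and 12 members outside but 11, 1 and 1 footprints inside peaks. Brd2, a reader of acetylated histones, had 8, 11 and 10. The promoter peaks of the 20 genes with the most members, among those with a recurrent site, all ranked above the 94 percentile of signal in each library. Genes with more start sites also have more bases within reach.

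Signal and fringe went together across genes. Of 21829 protein-coding genes, 7529 had a member within 500 bp of a start site in at least 2 libraries (34.5%), and of the 11197 with a promoter peak in all 3 libraries, called open here, 7489 had one (66.9%). Among open genes the share was 9.28% where the strongest promoter peak had a mean percentile of up to 50, 23.6% from 50 to 75, 60.3% from 75 to 90, 87.1% from 90 to 95 and 96.6% above 95. Without replicate 2 or without replicate 3, where both remaining libraries must have a member, the share of all genes was 17.9% and 18.6%.

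The lists of natural killer genes differed in how many of their open genes had members, set here beside the signal of their promoters and the 66.9% of all open genes. Of 16 open natural killer receptor genes 3 had a member in at least 2 libraries, and the median signal percentile of the 16 was 68.5; of 19 open cytotoxic effector genes 9 did, at 81.1. Of 20 open natural killer transcription factor genes 15 did, at 80.8, of 20 cytokine receptor and signalling genes 11, at 86.5, and of 14 trafficking genes 6, at 71.5. Neither of 2 open Ly49 receptor genes did, at 23.98. The open housekeeping genes, 28 in all, had 25 with a member, at 96.2. Over all open genes the median was 89.5. By the class of their median percentile, the 3 of 16 receptor genes (18.8%) and the trafficking genes (42.9%) stand beside 23.6% of open genes with percentiles from 50 to 75. Effector genes (47.4%), transcription factor genes (75%) and cytokine receptor and signalling genes (55%) stand beside 60.3% of those from 75 to 90. The genes of a list span several classes, however: the open trafficking genes ran from 44.99 for Itga1 to 97.4 for Cxcr4. A list and the class of its median are therefore not matched for signal. What sets the lists apart was not tested. No gene of the natural killer lists had a member at its promoter without a peak there in the same library. That outcome was nearly fixed beforehand, because every member lay at most 705 bp from a peak of its library and most lay far closer. The share over all genes is not given.

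Single natural killer genes ranged widely in their number of members; those given here were chosen after their values were seen. Over all open genes the median was 4 members, summed over the libraries. Stat3, a transducer of cytokine signals, had 8, 7 and 9, and Ifnar1, a chain of the type I interferon receptor, 3, 7 and 7. The chemokine receptor gene Cxcr4 had 6, 7 and 5. These 3 genes had members in all libraries and a recurrent site, with promoter signal at or above the 96.99 percentile in each library. Il2rb, the shared receptor chain for interleukins 2 and 15, had 4, 1 and 3. Runx1 had 2, 6 and 7, and Runx3 0, 1 and 4. The perforin gene Prf1 had 0, 2 and 1, the granzyme gene Gzmb 0, 1 and 1, the interferon gene Ifng 1, 1 and 1, and the NKp46 gene Ncr1 0, 0 and 1, each with a promoter peak in every library.

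Genes of other lineages were counted in the same way, against 34.5% of all genes and 66.9% of open ones. Median signal percentiles of the open ones were 69.1 for B cell, 76.3 for T cell, 78.3 for monocyte and macrophage and 75.2 for erythroid genes. They were 69.4 for neuronal genes and 68.7 for the 1 open hepatocyte gene, against 89.5 over all open genes. The shares were not matched for signal. Of 20 B cell genes 4 had a member in at least 2 libraries (33.3% of the 12 open ones). Among them were Pax5, the B cell identity factor, with 1, 2 and 0, and Cd37, with 3, 0 and 2. Of 20 T cell genes 2 did (28.6% of the 7 open ones), among them Lef1 with 1, 1 and 0, and of 20 neutrophil genes 0 did, none of which was open in all 3 libraries. Of 20 monocyte and macrophage genes only Cebpb did, of 5 open, with 0, 7 and 6, and of 17 erythroid genes only Tfrc, of 6 open, with 0, 3 and 2. Of 18 hepatocyte genes only Trf did, the 1 open gene, with 1, 1 and 0, and of 18 neuronal genes only Syp, of 3 open, with 0, 1 and 1. The promoter of Pax5 ranked at percentiles of 33.0, 96.0 and 92.4; the part of other cells in these libraries was not tested. Among housekeeping genes Ywhaz had 1, 14 and 9, Eef1a1 3, 10 and 6, Polr2a 0, 9 and 9 and Ppia 6, 5 and 7.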

How the data were processed

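DNase-seq of 3 natural killer cell libraries, 1 group, was used. Per the deposited descriptions all lists were made per library on mm10; which aligner and callers made them is not given in the sources used here. The authors deposited 2 peak lists per library with a signal for each peak, compared here only as ranks within a library, cut rate intervals with a q-value (p-value adjusted to an FDR) of up to 0.05, and footprints whose deposited score is the constant 0.01 and was not used. The footprints derive from the alignments and the cut rate intervals of the same library, so the members and the peaks share reads. Read depth is unknown, so no counting intervals are given.

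Peaks of the longer list (40484, 84564 and 81854) were joined where they overlapped. A footprint was outside where it shared no base with a peak. Gaps, widths, GC content, repeats and motifs were computed in Python 3.11.15 with numpy 2.4.6, pandas 2.3.3 and numba 0.67.0, from GRCm38 and GENCODE M21, on 21 chromosomes, and tested on simulated intervals. Of 283 entries in 14 gene lists, 282 matched. Members and inside footprints were compared within each library, and means are over 3 libraries with the SD. No test over members was made.

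The members, gene lists and 34 motifs were chosen with earlier results of these data known. Motifs named were CTCF, ETS, RUNX, T-box and, among those with at least 20 matching members per library and 1 sign, the 6 highest and 6 lowest ratios. Genes named were the 20 with the most members among those with a recurrent site, natural killer genes with a member but no promoter peak, and up to 4 per other list. Sequences were the 2 recurrent sites nearest to a start site per named motif, off UTR exons and chromosome 18. Alternatives were the stricter peak list, widened peaks, other overlap rules, width, GC and promoter subsets, and leaving out each library. Comparisons with the neighbouring peaks and within 500 bp of start sites were added after the values were seen.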

Additional observations from a re-analysis of the deposited data

How the results depend on the processing

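Where the stricter peak list was used, 24.5% of footprints lay outside, with a median gap of 92.7 bp and 98.9% under the FDR of 0.05. The GC difference then turned to -1.08 points, and the motif ratios to 0.0175 for ETS, -0.43 for YY1 and -0.52 for E2F. Peaks widened by 100 bp left 3.28% outside, 56.1% of these in a peak of another library, 509 recurrent sites and an E2F ratio of -0.24. Counting a footprint as inside only where 50% was covered gave 50.3% in a peak of another library. The FDR of 0.001 held 91.3% of members, and sites in at least 2 libraries numbered 9731. YY1 turned to -0.46 at 40 to 60% GC and, over 500 bp from start sites, YY1 to -0.64 and E2F to -0.78. Against the neighbouring peaks the start site difference turned to -2.46 points, the GC difference to -1.92, YY1 to -0.51 and E2F to -0.88, and within 500 bp of start sites the GC difference to -0.87, YY1 to -0.11 and E2F to -0.38. Leaving out each library in turn gave 20.8% to 40.1% of members in a peak of another library, 2-library recurrent sites from 3292 to 13657, 3 to 13 6-mers and 17.9% to 32.01% of genes; there fewer libraries are compared. CTCF, RUNX and T-box ratios were negative under every alternative run. The causes of the changes were not tested, except that subsets hold fewer footprints. Depth is unknown, all 3 libraries carry 1 donor label, and most lymphoid motif counts rest on under 150 members per library.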
